A study of Homo sapiens with 3 samples.

Results

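Polyamines are made from ornithine and decarboxylated S-adenosylmethionine, and several genes of the pathway are regulated while they are being translated. AMD1 encodes S-adenosylmethionine decarboxylase, SRM encodes spermidine synthase and SMS encodes spermine synthase. OAZ1 encodes antizyme, which binds ornithine decarboxylase (ODC1) and sends it to the proteasome, and AZIN1 encodes antizyme inhibitor, which binds antizyme in place of ODC1. Translation of AMD1 is known to be held back by polyamines through a short upstream open reading frame (uORF), full-length antizyme is made only when ribosomes shift to the next frame, and AZIN1 carries an upstream conserved region that starts at a codon other than AUG. The genes were chosen by name, as AMD1, ODC1, OAZ1, OAZ2, AZIN1, SRM, SMS and SAT1. Of these 8, 5 were listed (AMD1, AZIN1, OAZ1, SMS and SRM, 1 transcript each), and the same 5 in each library, out of 8812 transcripts listed in all libraries. ODC1, OAZ2 and SAT1 were not analysed here.

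Ribosome profiling was done in HEK293T, an immortal line of human embryonic kidney origin expressing the large T antigen of SV40. In this assay, stretches of mRNA shielded by ribosomes from nuclease (ribosome-protected fragments, RPFs) are sequenced, so read numbers measure how many ribosomes sat on a region. The untreated group (0 µg/mL, 24 hours) had 2 libraries, Untreated A and Untreated B. The treated group had 1 library, G418 A, from cells kept for 24 hours in 500 µg/mL G418, an aminoglycoside that binds the decoding centre of the ribosome and promotes misreading, including at stop codons. The libraries held 5857230, 9477972 and 7216039 reads behind the RPM scale, in which reads are divided by the depth of the library. The study describes its replicates as biological, although the labels do not name the cultures. With a single G418 library, the spread in every test came from the 2 untreated libraries, and G418 A was assumed to vary as they do. All 6 marker genes fixed for HEK293T cells were listed. In RPKM of the coding sequence (RPM per kilobase), VIM stood at 1710 to 2163, ENO2 at 41.5 to 66.1, NEFM at 12.5 to 21.3, LHX1 at 7.37 to 8.40 and NES at 3.41 to 4.39, and PAX2 appeared at 1.28 in Untreated B alone. Of 7 markers of other cell types 4 were listed, GFAP, DES and COL1A1 at 3.45 to 10.7 RPKM, which overlaps the range of LHX1 and NES, and COL3A1 in Untreated B alone, while the blood markers PTPRC and CD34 and the liver marker ALB were not among the listed genes.

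The sequences at which these mRNAs depart from simple start-to-stop translation are shown first, read from GENCODE v44 on hg38. The tables use GENCODE transcripts of the same build, and the lengths and stop codons matched. The AMD1 uORF (chr6:110874796-110874816, plus strand) is the sole AUG-started frame in the AMD1 5′UTR, with 6 codons before its stop codon in capitals, and it ended 289 nt before the start codon of the coding sequence (CDS).
AMD1 uORF: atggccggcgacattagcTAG
The normal termination codon (NTC) of AMD1 lies at chr6:110893614-110893616 in exon 9 of 9. The next stop codon in its frame, the 3′UTR termination codon (3′TC), lies at chr6:110893998-110894000. GENCODE v44 annotates a further AMD1 transcript as a stop codon readthrough product, and its CDS ends at this same 3′TC. The contexts of both stop codons are given 5′ to 3′ with the stop codon and the base after it in capitals, since these 4 bases define the class with which readthrough is compared.
AMD1 NTC, chr6:110893599-110893628, plus strand: caacaacagcagagtTGATtaagaaaaatg
AMD1 3′TC, chr6:110893983-110894012, plus strand: ggctttcgtcctcatTAGGtgttggcctca
SRM NTC, chr1:11054853-11054882, minus strand: ctgaatgatgtgagcTGAGcccaggcgcca
SMS NTC, chrX:21994334-21994363, plus strand: aagaaagctaaacccTGAAgatcagtagcc
OAZ1 NTC, chr19:2273091-2273120, plus strand: ggagaggaggaggagTAGGgccgcctcggg
AMD1, SRM and SMS thus ended in TGA and OAZ1 in TAG. AZIN1 ended in TAA followed by A, and its sequence is not shown. At the OAZ1 frameshift site the capitals mark the last codon of the first frame, that frame's stop codon and the base after it. The T of the TGA, at position 2271443 of chromosome 19, is the base left out of the annotated CDS.
OAZ1 frameshift site, chr19:2271428-2271457, plus strand: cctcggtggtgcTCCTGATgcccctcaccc
The annotated CDS of OAZ1 has 204 nt before the skipped base and 480 nt, or 70.2%, after it. The deposited tables give 1 total for the CDS and 1 for each UTR, without positions. Reads before and after the frameshift, reads on the uORF and elsewhere in the 5′UTR, and reads at the AMD1 3′TC and elsewhere in its readthrough region therefore could not be separated.

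The first comparison asked whether ribosome occupancy of the CDS differed between G418 and untreated cells. AMD1 and SRM rose, by 2.01-fold and 1.99-fold over the untreated means. SMS and AZIN1 were also higher in G418 A than in both untreated libraries and OAZ1 was lower than in both, but these did not pass the test. The AMD1 CDS held 39.8 RPM in Untreated A, 34.6 RPM in Untreated B and 74.7 RPM with the drug, from 233, 328 and 539 reads. G418 A lay 2.01-fold above the untreated mean of 37.2 ± 3.66 RPM (SD, n = 2), while the untreated libraries differed by 1.15-fold. In edgeR's quasi-likelihood test the log2 change was 0.91 (SE 0.23, adjusted p = 0.0129). SRM, the enzyme that joins the aminopropyl group made available by AMD1 to putrescine, held 50.4, 56.4 and 106 RPM in the same order. This was 1.99-fold above the untreated mean of 53.4 ± 4.30 RPM (SD, n = 2), with a log2 change of 0.89 (SE 0.21, adjusted p = 0.00534 in edgeR). SMS, which extends spermidine to spermine, held 125, 109 and 166 RPM. Its log2 change of 0.41 (SE 0.19) missed the threshold in edgeR (adjusted p = 0.357).

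The regulators of ODC1 had values on both sides. AZIN1 held 24.8, 25.5 and 45.5 RPM, so that G418 A stood 1.81-fold above the untreated mean of 25.1 ± 0.550 RPM (SD, n = 2). From 145, 242 and 328 reads, its log2 change was 0.76 (SE 0.27), which did not pass in edgeR (adjusted p = 0.124). OAZ1 held 288, 296 and 250.3 RPM, the only one of the 5 with a lower RPM in G418 A than in both untreated libraries. Its log2 change of -0.32 (SE 0.19) missed the threshold in edgeR as well (adjusted p = 0.528).

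**Figure D1:**
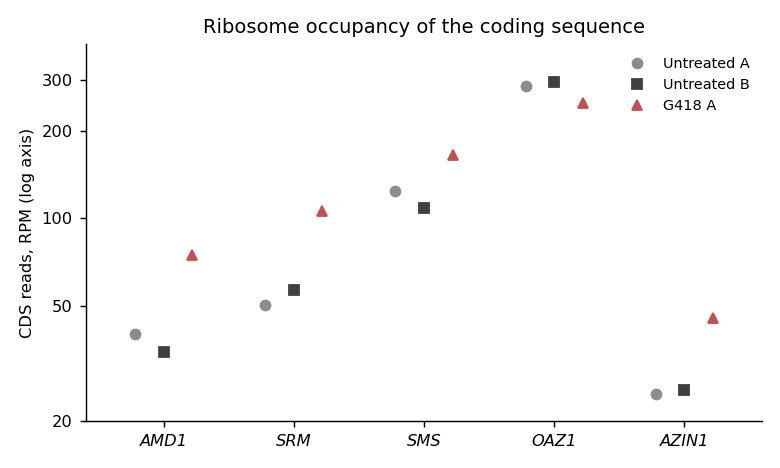
CDS reads in RPM (log axis) for each of the 5 genes in each library, without error bars because each point is 1 library. G418 A sits above both untreated points for AMD1, SRM, SMS and AZIN1 and below both for OAZ1, and AMD1 moves from 34.6 and 39.8 RPM to 74.7.

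Against the background of all transcripts, 2 of 5 genes were called, both higher, where 1.67% of the 8480 tested transcripts were called in either direction and 1.21% were called higher (103 higher and 39 lower, or 196 higher and 30 lower without TMM scaling). G418 A exceeded both untreated libraries in 4 of 5 genes, where 47.6% of all transcripts did so, and lay below both in 1 of 5, against 25.3%. The median log2 change of the 5 genes was 0.76, and that of all tested transcripts was 0.00057. AMD1 had a larger log2 change than 96.9% of tested transcripts and SRM than 96.7%. Both calls were lost with DESeq2 (adjusted p = 0.443 for AMD1 and 0.244 for SRM), which called 15 transcripts in all. Over all alternatives the adjusted p ran from 0.00273 to 0.443 for AMD1 and from 0.000392 to 0.244 for SRM, by edgeR, limma or DESeq2. RPFs rise with the amount of mRNA and with ribosomes per mRNA, and the 3 libraries cannot tell these apart. Reads were also allowed to match many positions, and GENCODE v44 names 4 pseudogenes of AMD1, 3 of SRM, and 1 each of SMS and OAZ1, with which their reads can be shared.

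Per length of CDS, OAZ1 was the most occupied of the 5 genes and AZIN1 the least. The untreated means were 446 ± 9.47 RPKM for OAZ1, 109 ± 10.4 for SMS, 61.0 ± 4.91 for SRM, 38.3 ± 3.76 for AMD1 and 19.1 ± 0.418 for AZIN1 (SD, n = 2 each). No untreated value of any gene overlapped that of its neighbour in this order. G418 A kept the order, at 383, 155, 121, 76.8 and 34.6 RPKM. Among the tested transcripts, OAZ1 lay above 96.6% in untreated density and AZIN1 above 48.3%.

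A list of 26 further genes of polyamine and methionine metabolism was counted in the same test, of which 15 were listed and tested. In edgeR none passed the threshold of adjusted p = 0.05 and 2 had an unadjusted p below it. Their median log2 change was 0.04, with 8 of 15 above 0 against 50.1% of all transcripts. The highest was SLC18B1, a vesicular polyamine transporter, at 0.68 (SE 0.23, adjusted p = 0.112 in edgeR). It held 42.3 and 38.0 RPM in the untreated libraries and 68.7 RPM in G418 A. The lowest was AHCY, which hydrolyses S-adenosylhomocysteine, at -0.45 (SE 0.19, adjusted p = 0.283 in edgeR). DESeq2 called neither AMD1 nor SRM, so the tools differ on whether any gene of the pathway passed.

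**Figure D2:**
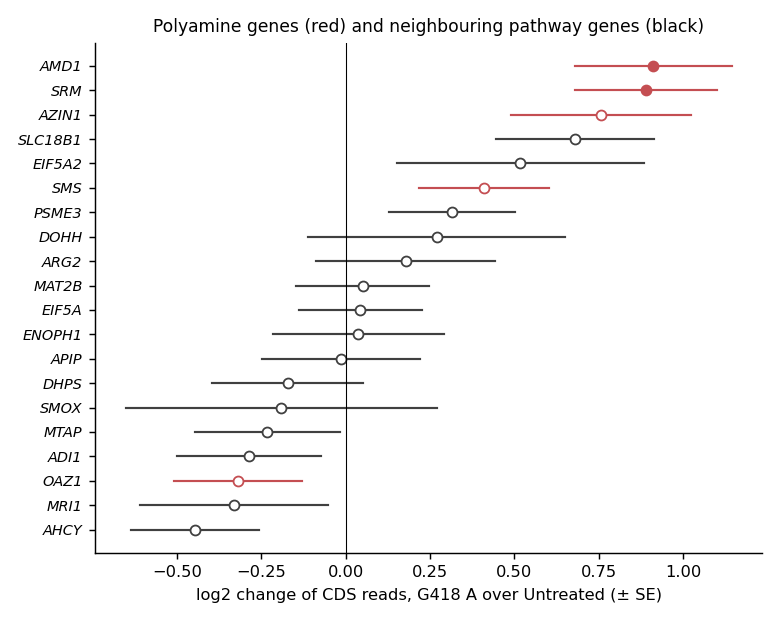
Log2 change of CDS reads, G418 A over the untreated libraries, with the SE derived from the edgeR test as bars, for the 5 polyamine genes (red) and 15 listed pathway genes (black). Filled points passed the threshold, which AMD1 at 0.91 and SRM at 0.89 did, and SLC18B1 at 0.68 is the highest of the black points.

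The second comparison asked whether ribosomes on the 5′UTR, where uORFs lie, changed relative to those on the CDS. For AMD1, Untreated A and G418 A had nearly the same 5′UTR density relative to the CDS, and Untreated B stood above both. AZIN1 carried more reads on its 5′UTR than on its CDS in untreated cells and fewer in G418 A. The AMD1 5′UTR held 33 and 164 reads in the untreated libraries and 74 in G418 A, or 5.63, 17.3 and 10.3 RPM, so G418 A lay between the untreated libraries. As a share of all reads on the transcript this was 12.0% (Wilson 95% interval 8.71 to 16.4), 32.5% (28.5 to 36.7) and 10.3% (8.31 to 12.8). The density of the 5′UTR was 43.7%, 154% and 42.4% of the CDS density. All intervals here cover counting error alone, and those of Untreated A and Untreated B did not overlap. The log2 change relative to the CDS was -1.04 (SE 0.94, adjusted p = 0.781 in edgeR). Without Untreated B the log2 ratio of G418 A to Untreated A was -0.04, with no test.

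For AZIN1 the 5′UTR held 213, 356 and 279 reads, a nearly constant 36.4, 37.6 and 38.7 RPM, beside the CDS values that differed 1.81-fold. These reads made up 59.2% (54.0 to 64.1), 59.5% (55.5 to 63.4) and 45.6% (41.7 to 49.5) of all reads on the transcript. The density of the 5′UTR was thus 254% of the CDS density in both untreated libraries and 147% (exact 95% interval 125 to 173) in G418 A. This density ratio lay above that of 94.7% of tested transcripts in Untreated A, 95.8% of them in Untreated B and 91.3% with G418. The log2 change relative to the CDS was -0.79 (SE 0.39, adjusted p = 0.700 in edgeR). The AZIN1 5′UTR holds 5 AUG codons, each opening a frame that closes before the CDS, and 35.2% of 6828 transcripts with matched sequences hold at least 1 such closed frame.

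SMS and OAZ1 had few reads upstream of the CDS. SMS held 17, 48 and 38 reads, with densities of 22.6%, 45.2% and 30.8% of the CDS, and G418 A lay between the untreated libraries. Its 5′UTR holds 1 AUG, whose frame does not close before the CDS. OAZ1 has no AUG in its 5′UTR and held 12, 20 and 20 reads, or 6.38%, 6.38% and 9.92% of the CDS density, with overlapping intervals (3.29 to 11.2, 3.89 to 9.87 and 6.05 to 15.4). SRM, which also has no upstream AUG, had 0 reads in all libraries. A count of 3 reads would have been 12.9%, 7.12% and 4.98% of its CDS density.

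**Figure D3:**
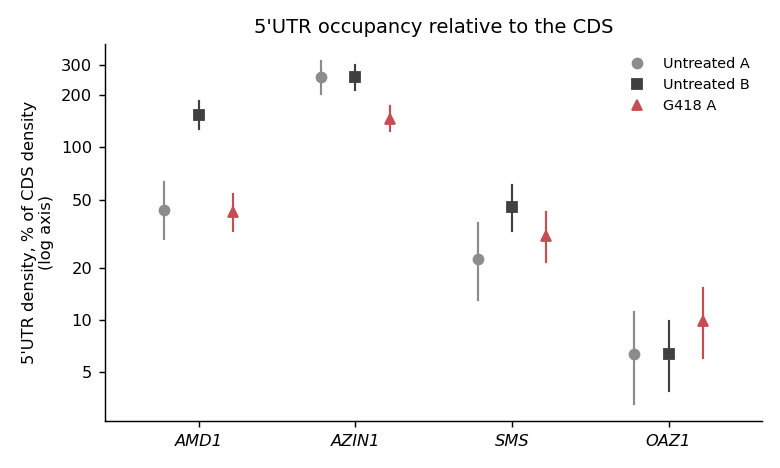
Density of 5′UTR reads as a percentage of CDS density (log axis) in each library, with exact 95% intervals for counting error. AMD1 in Untreated B, at 154%, stands apart from Untreated A and G418 A near 43%, and AZIN1 stands at 254% in both untreated libraries and at 147% in G418 A.

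Of the 4 genes tested for the 5′UTR, 0 were called, where 0.0% of 2344 tested transcripts were called. In edgeR 163 of these transcripts had an unadjusted p under 0.05, and DESeq2 called 0 with 110 under that level. The density ratio in G418 A was below both untreated libraries in 2 of the 4 genes, AMD1 and AZIN1, where 47.1% of transcripts showed the same. The median log2 change was -0.45 over the 4 genes and -0.29 over all tested transcripts. Of the 26 pathway genes 8 could be tested and 0 were called in edgeR, with 1 at an unadjusted p under 0.05. They ranged from -1.54 (SE 0.73) for DHPS, which starts hypusine synthesis on EIF5A, to 0.83 (SE 1.06) for the spermine oxidase gene SMOX. The DHPS 5′UTR held 8, 28 and 5 reads. That of SMOX held 33, 30 and 54, beside 32, 114 and 60 CDS reads. Relative to the CDS, G418 A thus lay between the untreated libraries for SMOX.

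The third comparison asked how many ribosomes passed the NTC. The ribosome readthrough score (RRTS) is the read density between the NTC and the 3′TC over that of the CDS, given here as a percentage. AMD1 and SRM had many reads past their stop codons in G418 A and few without the drug. The AMD1 region, 384 nt as far as the 3′TC, held 3 and 13 reads in the untreated libraries and 101 with G418. These correspond to an RRTS of 3.31% (exact 95% interval 0.678 to 9.80), 10.2% (5.37 to 17.7) and 48.2% (38.6 to 59.7). The interval of G418 A did not meet either untreated one. The 3′TC lies inside the counted region, and the study describes ribosomes stalled there, so the score counts such ribosomes together with those moving past the NTC. With the untreated libraries pooled, readthrough reads per CDS read were 6.57-fold higher in G418 A (3.86 to 11.9, counting error alone). Past the 3′TC, over 1713 nt, lay 5, 0 and 2 reads, a density of 0.211% of the CDS in G418 A.

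SRM has no further stop codon in frame in its 3′UTR, so its region spanned the whole 3′UTR of 276 nt apart from the bases next to the NTC. It held 1 and 0 reads in the untreated libraries and 70 with G418. The RRTS was 1.12% (0.0284 to 6.32), 0% and 30.4% (23.4 to 38.8), where 3 reads in Untreated B would have been 1.86%. Pooled, the ratio to CDS reads was 75.9-fold higher in G418 A, and with a single untreated read the counting interval ran from 13.2 to 3042. As a share of all reads on the transcript, the 3′UTR took 14.4% for AMD1 and 8.38% for SRM in G418 A, against 2.75% ± 0.244 and 0.169% ± 0.239 (SD, n = 2) in untreated cells.

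SMS, with a region of 36 nt, held 0, 0 and 8 reads. Its RRTS in G418 A was 23.8% (10.2 to 47.0), where 3 reads would have given 14.6% in Untreated A. This interval overlapped those of both untreated libraries, whose upper ends were 12.7% in Untreated B and higher in Untreated A. No minimum rise can therefore be given for SMS. A further 0, 4 and 15 reads lay past its 3′TC, at 2.97% of the CDS density in G418 A. OAZ1 held 0, 0 and 2 reads in its region of 60 nt, an RRTS of 1.34% (0.162 to 4.85) in G418 A, under the 2.01% that 3 reads would give. These 2 reads are too few to show a rise over the untreated libraries, which held 0. The upper end of the OAZ1 interval in G418 A, 4.85%, lay below the 16.7% pooled over the other transcripts ending in TAGG. Past the 3′TC OAZ1 held 2, 6 and 25 reads over 322 nt, 2.81% of the CDS density in G418 A, and its whole 3′UTR was 8.39-fold higher relative to the CDS (3.71 to 21.4). AZIN1 held 2, 0 and 4 reads, for an RRTS of 24.2% (2.90 to 88.9), 0% and 21.4% (5.79 to 55.2), with intervals that overlapped throughout.

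**Figure D4:**
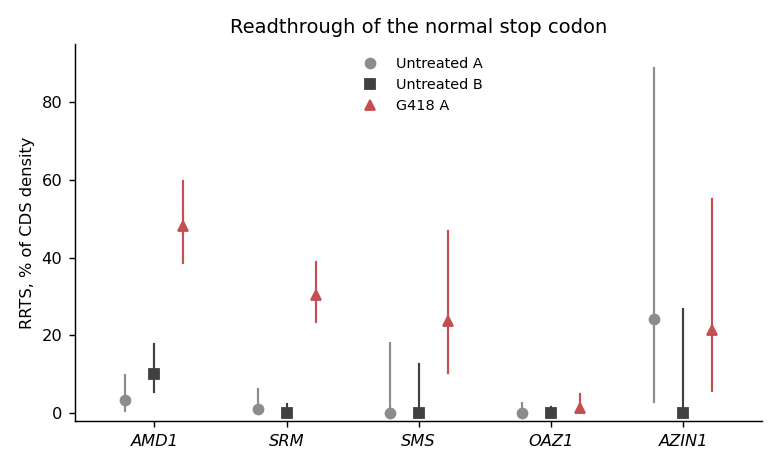
RRTS, the readthrough density as a percentage of the CDS density, in each library with exact 95% intervals for counting error. AMD1 at 48.2% and SRM at 30.4% in G418 A stand clear of their untreated points, while the AZIN1 intervals overlap and OAZ1 stays at 1.34%.

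Set against other transcripts with the same stop codon and next base, the 5 genes took no common place. The others ending in TGAT (376 transcripts with AMD1 included) had a pooled RRTS of 2.03%, 1.50% and 36.2% in the 3 libraries, G418 A last. AMD1 in G418 A lay above 62.2% of this class. SRM, at 30.4%, lay above 64.2% of the 1054 transcripts ending in TGAG, whose pooled RRTS without it was 22.8% in G418 A. SMS lay above 41.9% of 788 transcripts ending in TGAA (32.8% pooled), OAZ1 above 28.7% of 338 ending in TAGG (16.7%) and AZIN1 above 73.1% of 662 ending in TAAA (11.0%). The AMD1 and SRM regions were long, exceeding 98.5% and 95.9% of all regions. Among the 266 transcripts with at least 250 nt counted, the median RRTS in G418 A was 12.1%, AMD1 lay above 93.6% of them with 16 higher, and SRM above 85.3% with 38 higher. In the untreated libraries the other long regions had a pooled RRTS of 0.685% and 0.600% where AMD1 had 3.31% and 10.2%. The AMD1 value in Untreated A rests on 3 reads, and its interval of 0.678 to 9.80 holds 0.685%. The long regions were chosen by length alone and mix all stop codons. The AMD1 values include any reads at its 3′TC. These places are descriptions and were not tested.

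Tested across all 5684 transcripts in edgeR, 0 of 5 genes were called, where 0.334% of transcripts were. The log2 change relative to the CDS was 2.91 for AMD1 (SE 2.54, adjusted p = 0.562) and 5.86 for SRM (SE 3.06, adjusted p = 0.507). All 19 calls were higher in G418 A, and the median log2 change of all tested transcripts was 3.54, so that AMD1 lay below it. DESeq2 called 1357 transcripts, 23.9% of those tested, all higher, and among them SRM (adjusted p = 0.0129) but not AMD1 (adjusted p = 0.0863) or SMS (adjusted p = 0.0633). Over the alternatives in edgeR and DESeq2 the adjusted p ran from 0.0129 to 0.749 for SRM, from 0.0863 to 0.755 for AMD1 and from 0.0633 to 0.749 for SMS. RRTS was above both untreated values in 4 of 5 genes, all but AZIN1, where 72.0% of all transcripts showed the same. The count of 4 includes OAZ1, whose 2 reads are under the floor of 3. Of the pathway list 12 genes could be tested and 0 were called in edgeR, with 2 at an unadjusted p under 0.05. The highest log2 change there was AHCY, with 0, 0 and 24 readthrough reads, and the lowest MTAP, a methionine salvage enzyme, with 3, 0 and 0.

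**Figure D5:**
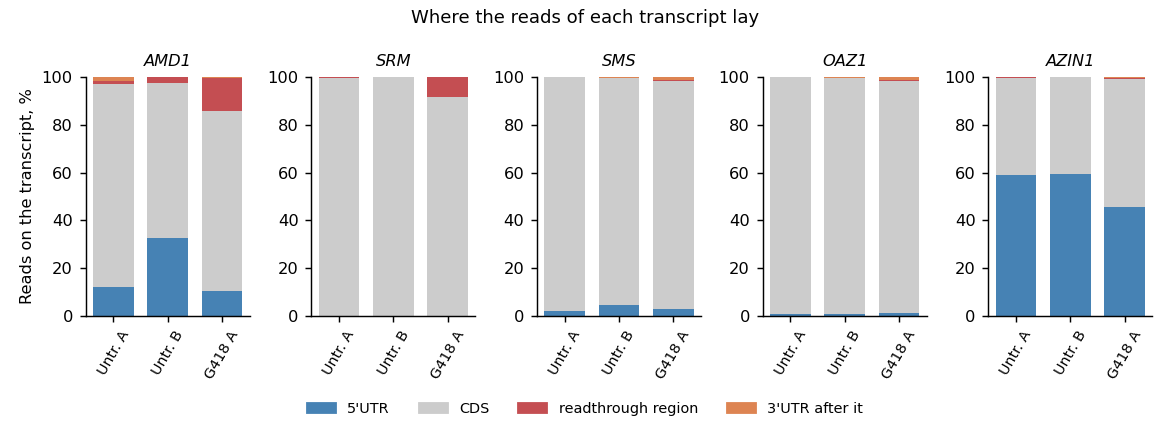
Share of the reads of each transcript (%) in the 5′UTR, the CDS, the readthrough region and the rest of the 3′UTR in each library. The readthrough share is largest for AMD1 and SRM in G418 A, where the 3′UTR takes 14.4% and 8.38% of reads, against 2.55% over all listed transcripts. Such a share grows with the length of the region, and both have long readthrough regions. Per length, as RRTS in G418 A, AMD1 lay above 77.9% of tested transcripts and SRM above 64.4%. The 5′UTR share of AZIN1 is 59.2%, 59.5% and 45.6%.

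The transcripts nearest to AMD1 over its CDS change, its 5′UTR change and its RRTS in G418 A were CRKL, LRP10, STARD3NL, NETO2 and CDK4, among 1835 tested in both UTR fits. The distance, in units of the SD of each quantity over these transcripts, was 0.149 for CRKL, 0.271 for LRP10, 0.296 for STARD3NL, 0.308 for NETO2 and 0.366 for CDK4. CRKL, an adaptor protein gene that also ends in TGAT, had a log2 CDS change of 0.88 and 11 readthrough reads with G418 (RRTS 39.7%). Its RRTS was 0% in Untreated A but already 29.4% in Untreated B, and the distance used the G418 score alone. CDK4, a cyclin-dependent kinase gene, had an RRTS of 30.3% from 60 reads and a log2 CDS change of 0.99. The RRTS of NETO2 and LRP10 in G418 A rested on 2 and 5 reads, and NETO2 had an RRTS of 144% in Untreated A. STARD3NL had an RRTS of 75.9% in G418 A, where AMD1 had 48.2%. The distances also used the AMD1 5′UTR change of -1.04 (SE 0.94), whose log2 ratio was -0.04 without Untreated B, so the list depends on that library.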

How the data were processed

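RPFs were measured in HEK293T cells, 2 untreated libraries and 1 with G418. Per the study's methods and the submitters' processing notes (CASAVA 1.8, STAR, hg38), the authors collapsed reads by molecular identifiers, aligned them with STAR keeping primary alignments, and assigned them to A sites on 1 transcript per gene. The deposited values were RPM per region, RPKM densities, whole-number counts, and ratios such as RRTS. The deposited CDS leaves out its ends, and readthrough regions leave out the first bases after the NTC. RPM values were whole multiples of 1 read (100% of nonzero values, tolerance 0.01 reads), so reads were recovered by division. In the deposited whole-number counts the CDS was often 1 lower, in 9080, 283 and 72 transcripts of Untreated A, Untreated B and G418 A, and these were an alternative only.

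CDS reads were tested with edgeR 4.0.16 (glmQLFit, TMM, mean of at least 20 reads, adjusted p by Benjamini-Hochberg). Reads of the 5′UTR (mean of at least 10) and of the readthrough region (mean of at least 128 CDS reads, region of at least 18 nt) were tested relative to CDS reads as a region-by-treatment term with library as a covariate. The SE given for edgeR was derived, as the absolute log2 change divided by the square root of the F statistic. Alternatives used DESeq2 1.42.0, limma 3.58.1 on log2(RPM + 1) or log2(RPM + 0.1), other minimums, no TMM and whole-number counts. Fits were tested on simulated data, in which the readthrough fit recovered the size of changes but rarely called them. For the region-by-treatment readthrough fit, the simulation changed a minority of transcripts, each by less than the median log2 change of 3.54 in the data. It therefore does not give the power for the changes seen here. Intervals are Wilson for shares of reads and exact (conditional binomial, scipy 1.17.1) for ratios, at 95%, and floors are 3 reads, per library. Fold changes of pooled reads take CDS reads as fixed. Named genes were all listed members, and of the pathway list those called and the highest and lowest change in each fit. Nearness to AMD1 was the Euclidean distance over 3 quantities divided by their SD, with RRTS as log2(RRTS + 0.01). The members and lists were chosen with earlier results of these data known. Sequences came from GENCODE v44 and hg38, matched by versioned transcript.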

Additional observations from a re-analysis of the deposited data

How the results depend on the processing

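The CDS test called 142 transcripts in edgeR, 226 without TMM and 15 with DESeq2, and DESeq2 called 0 of the 5 polyamine genes where edgeR called 2. AMD1 and SRM passed under each of the other CDS settings, and the log2 change of AMD1 ranged from 0.90 to 1.01 over all settings with a test. With limma, which used RPM without TMM, the median log2 change of all transcripts was 0.10 with 1 RPM added and 0.11 with 0.1 RPM added. The readthrough test called 19 transcripts, 11 at a mean of at least 20 CDS reads, 70 at a mean of at least 500, and 1357 with DESeq2, which called 1 of the 5 genes, SRM. With CDS reads as an offset, a setting chosen after seeing the data, it called 104. The cause of these differences was not tested. The 5′UTR test called 0 under every setting. With Untreated A or Untreated B left out, 1 library faced 1 and no test was possible. The log2 ratio without Untreated A and without Untreated B, in this order, was 1.11 and 0.91 for the AMD1 CDS, 0.91 and 1.07 for the SRM CDS, and -1.86 and -0.04 for the AMD1 5′UTR relative to the CDS, so the AMD1 5′UTR value rests on Untreated B. No paired analysis was possible because the groups share a single replicate letter, A. Readthrough of SMS and AZIN1 rested on at most 8 reads in a library. Their counted regions had 30 and 75 nt, against 378 nt for AMD1 and 264 nt for SRM. In G418 A they held 1198 and 328 CDS reads, beside 539 for AMD1 and 765 for SRM. OAZ1 had 2 readthrough reads beside 1806 CDS reads in G418 A.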

Other observations

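EIF5A, the translation factor whose hypusine residue is made from spermidine, was named after its values were seen, because it had the most readthrough reads of the pathway list. Its readthrough region held 2 and 6 reads in the untreated libraries and 113 with G418, or an RRTS of 0.441%, 0.840% and 18.6%. Its log2 change relative to the CDS was 4.79 (SE 1.59) and did not pass in edgeR (adjusted p = 0.252). CDS occupancy of EIF5A was 930 and 904 RPM in the untreated libraries and 1011 RPM in G418 A, a log2 change of 0.04 (SE 0.18, adjusted p = 0.969 in edgeR).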
